A study of Caenorhabditis elegans with 8 samples.

Results

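The genes described here are the small RNA and germ granule factors of the nematode Caenorhabditis elegans: the Argonautes and enzymes that make, amplify and use small RNAs, and the proteins of the perinuclear granules of the germ line where much of this takes place. They were picked by gene symbol, and the choice was made with earlier results of these data known. The rule took numbered members of the wago, alg, sago, ppw, nrde, rde, mut, pgl, glh, meg and deps families. Added to these were 13 single symbols such as prg-1, csr-1 and dcr-1. This gave 54 of the 17826 genes in the deposited table. Of the 13 single symbols, 12 were listed, and znfx-1 appears only under its sequence name ZK1067.2, so it is not counted among the 54. All 54 genes passed the filter on low values and were tested. Measured in whole worms were 4 samples kept on zidovudine and 4 kept on its solvent, DMSO. The zidovudine worms were wild type (strain N2), received 50 µM of the drug for 24 h from larval stage 4, and were collected as day 1 adults. The DMSO worms were of the same strain, stage and age and received only the vehicle. The treatment protocol names 5-fluorouracil as present in the plates of both groups; whether this compound or its deoxyriboside, a common sterilising agent for worms, is meant is not stated. Each sample was a pool of worms. Whether samples of a group came from separate cultures is not stated, and the p-values reflect only how these samples vary, which may be technical. The series' title puts pyrimidine metabolism, translation, lifespan and ATF-4 at the centre of the study, and the comparison made here asks whether mRNAs of the small RNA machinery differed under zidovudine, a nucleoside drug given against HIV.

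Argonaute proteins hold a short RNA that guides them to transcripts with a matching sequence. In C. elegans, primary Argonautes carry microRNAs, piRNAs or siRNAs cut by Dicer. In the piRNA and siRNA pathways, RNA-dependent RNA polymerases then copy the target into abundant secondary siRNAs. These are loaded onto the worm-specific WAGO Argonautes and act in the cytoplasm, in the nucleus or across generations. In germ cells, many of these steps are organised in germ granules. The granules lie at the nuclear pores as layered compartments (P granules, Z granules and Mutator foci). The libraries measured only the polyadenylated mRNAs that encode these proteins, not small RNAs.

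Library totals ran from 31756275 to 56930820 assigned reads with zidovudine and from 30449021 to 44239062 with DMSO, which puts at least 42 reads behind every value of the 54 genes. The run identifier in the description of DMSO 4, written like that of a flow cell, differed from the one shared by the remaining 7 libraries, and run and library cannot be told apart there. DMSO 4 had 8.24% of all genes at 0 reads, against 1.07% to 1.61% in the zidovudine libraries and 1.25% to 2.17% in the other DMSO libraries. Values without DMSO 4 are values within 1 run. Markers of germ line, intestine, muscle, neurons and hypodermis were all detected, as whole worms should give; of 15 sperm markers 11 passed the filter, and spe-38 and spe-42 had 0 reads in at least 1 library. In bulk RNA of whole worms, fewer germ cells and less mRNA per germ cell cannot be told apart.

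The 54 mRNAs spanned a wide range of abundance. Levels are compared here as log2 CPM per kb of exon (reads scaled to library size and divided by exon length), averaged over all 8 libraries. Highest were wago-1 at 8.13, the leading P granule WAGO, and hrde-1 at 8.09, the nuclear Argonaute of heritable silencing, whose difference was smaller than the SD between libraries of a group. Next came the P granule proteins pgl-1 (7.74) and glh-1 (7.64), then rde-4 (7.12), which encodes the double-stranded RNA binding partner of Dicer, and prg-1 (7.08), the Piwi Argonaute that binds piRNAs. prg-1 reads are uncertain because prg-2 is a near-identical copy between which reads could be split. The P granule gene deps-1 (7.03), pgl-3 (6.91) and csr-1 (6.84), the Argonaute that marks expressed germline genes, followed within a narrow span. Among the enzymes, levels per kb were 5.23 for dcr-1 (Dicer), 4.78 for rrf-1 and 4.60 for ego-1, the polymerases that make secondary siRNAs. alg-1, a microRNA Argonaute, stood at 3.02, and its partner in function alg-2 at 4.52. At the low end were alg-3 (0.74) and alg-4 (0.61), Argonautes of the spermatogenesis siRNAs, sago-2 (1.19), the annotated pseudogene wago-11 (0.078) and wago-10 (-1.23). The reads behind these 5 low genes were 156 to 329 for alg-3, 143 to 310 for alg-4, 211 to 333 for sago-2, 73 to 195 for wago-11 and 42 to 73 for wago-10.

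**Figure D1:**
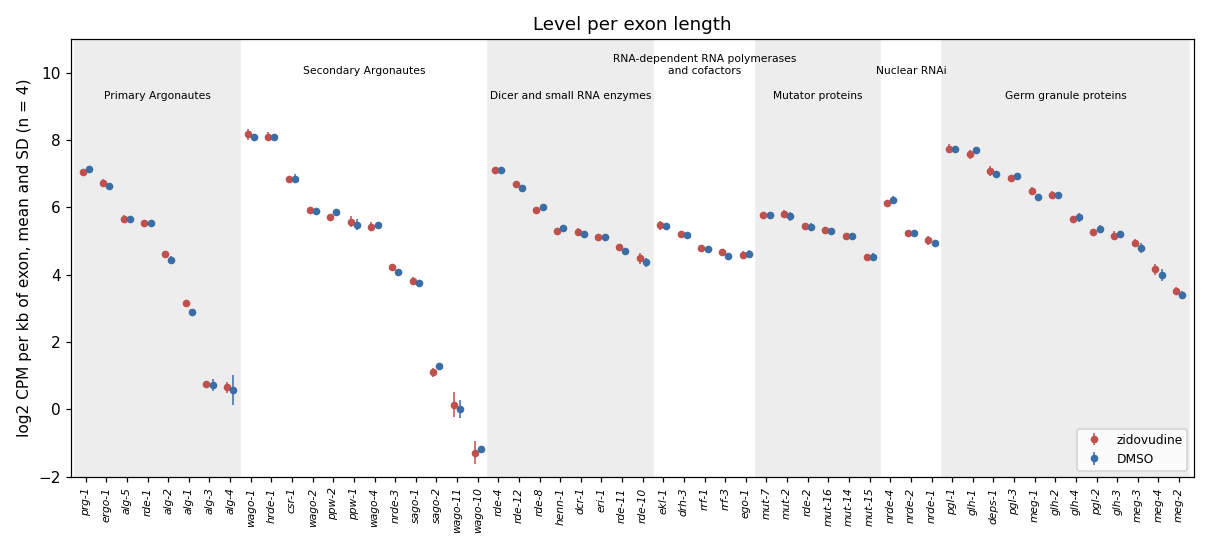
Level of each gene in log2 CPM per kb of exon (vertical axis), as mean and SD of 4 libraries, zidovudine in red on the left and DMSO in blue on the right of each pair, with genes ordered within 7 functional groups on alternating shading. wago-1 (8.13 over all libraries) and hrde-1 (8.09) are highest, and wago-10 (-1.23) is lowest; the 2 groups lie close together for every gene.

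None of the 54 genes passed the threshold between zidovudine and DMSO (limma, adjusted p under 0.05 over the 12382 tested genes), where 0.17% of all tested genes passed. The smallest limma adjusted p among the 54 was 0.1501, that of alg-1. Before adjustment, 3 genes had p under 0.05 and were higher with zidovudine (alg-1, meg-1 and alg-2) and 0 lower, where 6.28% of all tested genes were higher and 5.48% lower by that measure; 3 of 54 is near that background. The 4 zidovudine libraries lay wholly above the 4 DMSO libraries for 2 genes, alg-1 and rde-11, and wholly below for 0, against 3.84% and 2.82% of all tested genes. By sign, 36 of the 54 had a log2 fold change (zidovudine minus DMSO) above 0 and 18 had one below 0; their median was 0.011, next to 52.3% above 0 and a median of 0.0082 for all tested genes. This majority did not hold in every setting. With each library's trend on exon length removed, 21 of the 54 were above 0 (median -0.032), next to 6261 of the 12382 tested genes. Without DMSO 4 it was 27 of the 54 (median -0.0016), and without DMSO 4 and zidovudine 2 together it was 35 (median 0.031). Zidovudine 2 was the library in which the 54 genes stood lowest (median deviation -0.11 from their own means). Leaving it out therefore tends to raise their zidovudine means, here and in the groups below. The median exon length of the 54 was 3019 nt, against 1438 nt for all tested genes, and 67.3% of all tested genes of 2000 to 4000 nt were above 0. The sum of the 54 genes was 8908 to 10219 CPM in zidovudine libraries and 9032 to 9787 CPM in DMSO libraries, so the groups overlapped. The 95% interval of the fold change lay within 1.5-fold of no change for 53 of the 54 genes, against 73.1% of all tested genes. The exception was wago-10, whose interval ran from -0.63 to 0.40 on the log2 scale. These shares were not matched for abundance.

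**Figure D2:**
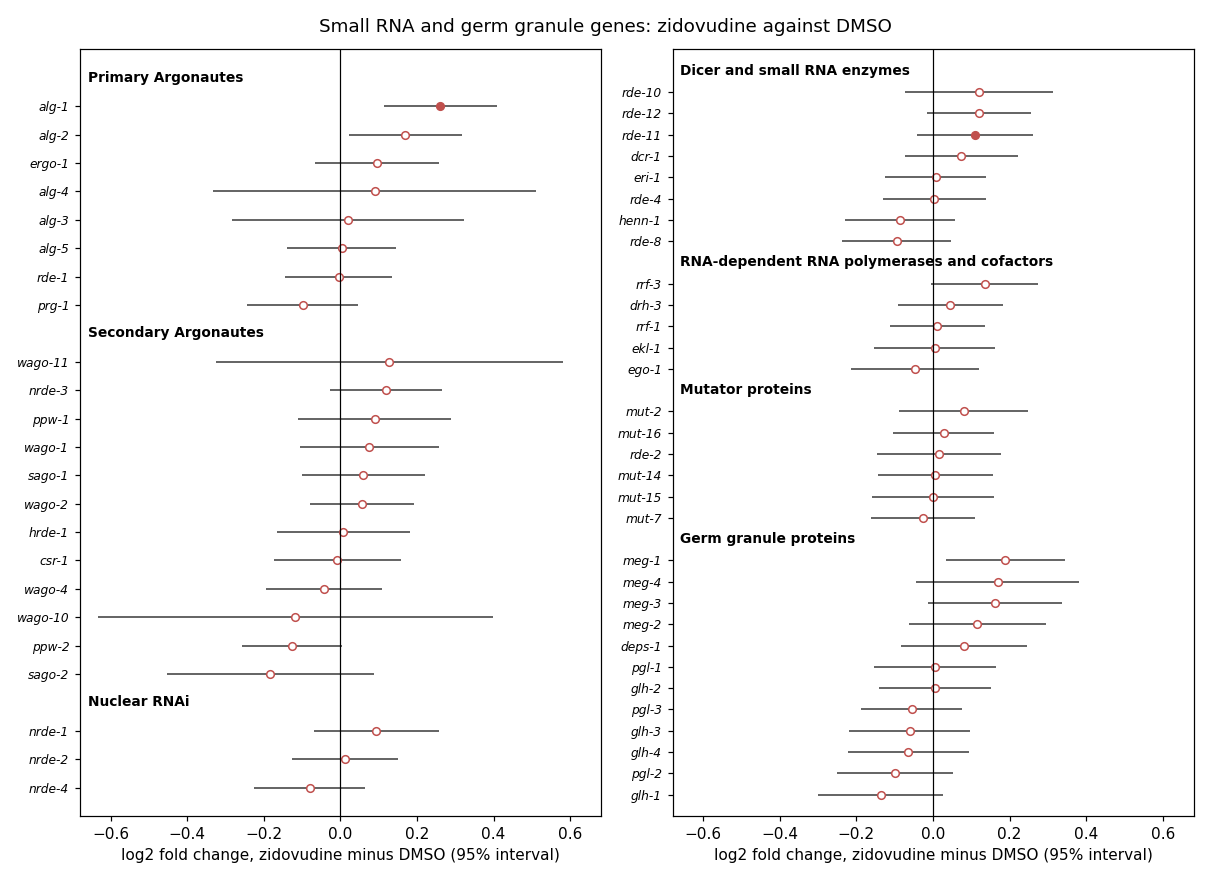
log2 fold change, zidovudine minus DMSO (horizontal axis), with its 95% interval from limma for the 54 genes in their 7 functional groups; filled points mark genes whose 4 zidovudine libraries and 4 DMSO libraries do not overlap (alg-1 and rde-11). The intervals of alg-1, alg-2 and meg-1 lie above 0 before adjustment for the 12382 genes tested, and no adjusted p was under 0.05.

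Among the 8 primary Argonautes, the microRNA Argonautes alg-1 and alg-2 had the largest log2 fold changes. Of the 8, 6 were above 0 (median 0.055), 4 with the length trend removed (median -0.0054) and 3 without DMSO 4 (median -0.010). Without DMSO 4 and zidovudine 2 together it was 5 (median 0.042). alg-1 (WBGene00000105; WBcel235 chromosome X, 13949110 to 13956261, protein coding) was at 5.81, 5.81, 5.94 and 5.998 log2 CPM in the zidovudine libraries, against 5.60, 5.67, 5.65 and 5.60 in the DMSO libraries. Every zidovudine library lay above every DMSO library. The log2 fold change was 0.26 (1.20-fold, SE 0.068, 95% interval 0.12 to 0.41, limma adjusted p = 0.1501), and over the other settings it ran from 0.15 to 0.29 with adjusted p from 0.0469 to 0.439. Of these settings only sample quality weights took it past the threshold (limma adjusted p = 0.0469). The exons of alg-1 span 6696 nt, the longest of the 54, and fold changes went with exon length in these libraries: the median was 0.050 for all tested genes of 2000 to 4000 nt and 0.080 for those of 4000 to 8000 nt. With each library's trend on length removed, alg-1 was at 0.15 and alg-2 at 0.095.

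alg-2 (WBGene00000106; chromosome II, 873212 to 879885) was at 6.57, 6.68, 6.69 and 6.69 log2 CPM with zidovudine, against 6.37, 6.58, 6.59 and 6.41 with DMSO. Its groups overlapped, since zidovudine 1 was below DMSO 2 and DMSO 3 (log2 fold change 0.17, SE 0.068, limma adjusted p = 0.355). alg-1 and alg-2 are close paralogues with overlapping roles, and how reads matching both were counted is not stated. The third microRNA Argonaute, alg-5, which acts in the germ line, averaged 7.30 ± 0.11 log2 CPM with zidovudine and 7.29 ± 0.045 with DMSO (SD, n = 4 each), a log2 fold change of 0.0032 with an interval of -0.14 to 0.14.

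The piRNA Argonaute prg-1 (WBGene00004178) was at 8.39, 8.35, 8.499 and 8.56 log2 CPM with zidovudine, against 8.49, 8.57, 8.61 and 8.51 with DMSO. Zidovudine 1 and 2 lay below all DMSO libraries and zidovudine 3 and 4 among them (log2 fold change -0.098, SE 0.067, limma adjusted p = 0.579). Its copy prg-2, which is not among the 54, had a log2 fold change of 0.068. For ergo-1, the Argonaute of oocyte and embryo siRNAs, the log2 fold change was 0.096, and for rde-1, the Argonaute of introduced double-stranded RNA, it was -0.0041. The spermatogenesis Argonautes alg-3 (0.020, SE 0.14) and alg-4 (0.089, SE 0.20) had few reads and wide intervals. alg-4 stood at 1.73 log2 CPM in DMSO 4 and at 2.39 to 2.77 in the other DMSO libraries; without DMSO 4 its log2 fold change was -0.12.

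Of the 12 secondary Argonautes, 7 were above 0 and 5 below (median 0.033 on the log2 fold change scale). With the length trend removed 5 of 12 were above 0 (median -0.033), and without DMSO 4 it was 6 (median -0.0033). Without DMSO 4 and zidovudine 2 together it was 7 (median 0.026). wago-1 (WBGene00011061), the highest of them per kb, was at 9.66, 9.62, 9.88 and 9.95 log2 CPM with zidovudine, against 9.71, 9.80, 9.72 and 9.58 with DMSO. Zidovudine 3 and 4 were above and zidovudine 1 and 2 among the DMSO values (log2 fold change 0.076, SE 0.084, limma adjusted p = 0.727). ppw-2 (WBGene00004094), a germline WAGO also known as wago-3, was at 7.39, 7.35, 7.41 and 7.55 log2 CPM with zidovudine, against 7.57, 7.53, 7.57 and 7.54 with DMSO. Its DMSO libraries agreed closely, and 3 of the 4 zidovudine libraries lay below them all (log2 fold change -0.13, SE 0.060, limma adjusted p = 0.425). sago-2 (WBGene00018921), a WAGO of somatic RNA interference, was at 2.51, 2.83, 2.65 and 2.61 log2 CPM with zidovudine, against 2.95, 2.81, 2.81 and 2.76 with DMSO. The groups overlapped through zidovudine 2 (log2 fold change of -0.18, SE 0.13, limma adjusted p = 0.583).

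The Argonautes best known for opposite effects on germline genes showed small differences. csr-1, which protects expressed genes, averaged 8.71 ± 0.096 log2 CPM with zidovudine and 8.72 ± 0.13 with DMSO (SD, n = 4 each), a log2 fold change of -0.0082 with an interval of -0.17 to 0.15. hrde-1, which silences across generations, averaged 9.92 ± 0.14 with zidovudine and 9.91 ± 0.082 with DMSO, a log2 fold change of 0.0081 with an interval of -0.16 to 0.18. The nuclear Argonaute of somatic cells, nrde-3, had a log2 fold change of 0.12 (SE 0.068, limma adjusted p = 0.513). wago-4, which transmits silencing to progeny, was at -0.043, ppw-1, needed for RNA interference in the germ line, at 0.090 and sago-1 at 0.060. wago-2 (0.057) and wago-11 (0.13), annotated as pseudogenes in Ensembl, and wago-10 (-0.12) also had intervals that included 0.

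**Figure D3:**
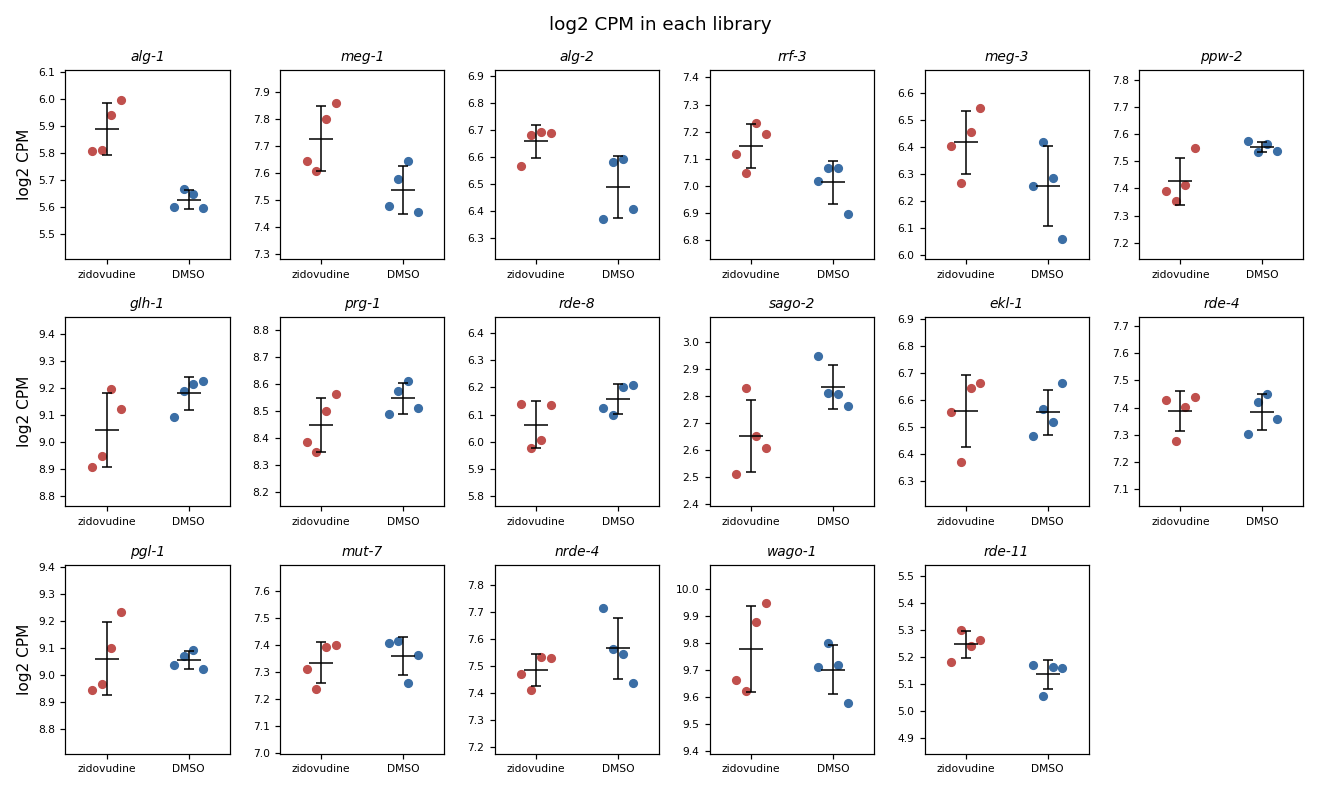
log2 CPM (vertical axis, the same span of log2 units in every panel) of each of the 4 zidovudine libraries (red, left) and 4 DMSO libraries (blue, right) for the 17 genes given in full, with mean and SD in black. alg-1 and rde-11 are the panels without overlap between the groups, and the pgl-1 means differ by 0.0054 on the log2 scale.

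Of the 8 genes for Dicer and other small RNA enzymes, 6 were above 0 and 2 below (median 0.040). With the length trend removed 4 of the 8 were above 0 (median -0.011), and without DMSO 4 also 4 (median 0.019). Without DMSO 4 and zidovudine 2 together it was 5 (median 0.062). rde-11 (WBGene00023421; chromosome IV, 13105200 to 13106927), which with rde-10 promotes siRNA amplification, was at 5.18, 5.30, 5.24 and 5.26 log2 CPM with zidovudine, against 5.17, 5.06, 5.16 and 5.16 with DMSO. The groups did not overlap, but the gap between zidovudine 1 and DMSO 1 was narrow (log2 fold change 0.11, SE 0.070, limma adjusted p = 0.556). rde-10 was at 0.12 (SE 0.090). rde-12, a DEAD-box helicase of the pathway, averaged 8.41 ± 0.087 log2 CPM with zidovudine and 8.29 ± 0.028 with DMSO (SD, n = 4 each; log2 fold change 0.12, SE 0.063, limma adjusted p = 0.477). rde-8 (WBGene00022620), an endonuclease that cuts target mRNAs, was at 6.14, 5.97, 6.004 and 6.13 log2 CPM with zidovudine, against 6.12, 6.10, 6.20 and 6.21 with DMSO. Zidovudine 2 and 3 lay below all DMSO libraries (log2 fold change -0.095, SE 0.065, limma adjusted p = 0.581).

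dcr-1 itself averaged 7.83 ± 0.11 log2 CPM with zidovudine and 7.75 ± 0.074 with DMSO (SD, n = 4 each), a log2 fold change of 0.074 with an interval of -0.072 to 0.22; it was -0.028 with the length trend removed. Its partner rde-4 (WBGene00004326) was at 7.43, 7.28, 7.40 and 7.44 log2 CPM with zidovudine, against 7.30, 7.42, 7.45 and 7.36 with DMSO. The groups overlapped over nearly their whole range (log2 fold change 0.0032, SE 0.062, limma adjusted p = 0.989). eri-1, an exonuclease that dampens RNA interference, was at 0.0068. henn-1, the methyltransferase that methylates the ends of piRNAs and some siRNAs, was at -0.086 (SE 0.066).

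The RNA-dependent RNA polymerases and their cofactors had log2 fold changes from -0.047 to 0.13, with 4 of 5 above 0. These are long genes (median 5025 nt), and with the length trend removed 1 of 5 was above 0 (median -0.033). Without DMSO 4 all 5 were (median 0.040), as they were without DMSO 4 and zidovudine 2 together (median 0.075). rrf-3 (WBGene00004510; chromosome II, 8162465 to 8168651), the polymerase that makes the precursors of primary endogenous siRNAs with Dicer, was at 7.12, 7.05, 7.23 and 7.19 log2 CPM with zidovudine, against 7.02, 7.07, 7.07 and 6.90 with DMSO. Only zidovudine 2 lay among the DMSO values, and DMSO 4 was the lowest library (log2 fold change 0.13, SE 0.064, limma adjusted p = 0.427). With the length trend removed rrf-3 was at 0.038, and its exons span 5530 nt. The tudor domain cofactor ekl-1 (WBGene00009052) was at 6.56, 6.37, 6.65 and 6.66 log2 CPM with zidovudine, against 6.47, 6.57, 6.52 and 6.66 with DMSO. The lowest value was that of zidovudine 2, and zidovudine 4 and DMSO 4 were equally high (log2 fold change of 0.0041, SE 0.073, limma adjusted p = 0.989). The Dicer-related helicase drh-3 was at 0.046, rrf-1 at 0.011 and ego-1 at -0.047.

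Genes for Mutator proteins, which collect the polymerases in Mutator foci, had log2 fold changes from -0.026 to 0.080, with 4 of 6 above 0 (median 0.011). With the length trend removed 1 of the 6 was above 0 (median -0.029), and without DMSO 4 it was 2 (median -0.015). Without DMSO 4 and zidovudine 2 together it was 5 (median 0.014). The exonuclease gene mut-7 (WBGene00003504) was at 7.31, 7.24, 7.39 and 7.40 log2 CPM with zidovudine, against 7.41, 7.42, 7.26 and 7.36 with DMSO. The ranges of the groups nearly coincided (log2 fold change of -0.026, SE 0.062, limma adjusted p = 0.884). The scaffold gene mut-16 was at 0.027, the nucleotidyltransferase gene mut-2 at 0.080, rde-2, whose product binds MUT-7, at 0.016, the helicase gene mut-14 at 0.0059 and mut-15 at -0.00035. Of the nuclear RNAi genes, which act with nuclear Argonautes on nascent transcripts, nrde-4 (WBGene00001584) was at 7.47, 7.41, 7.53 and 7.53 log2 CPM with zidovudine, against 7.71, 7.56, 7.54 and 7.44 with DMSO. Its groups overlapped (log2 fold change -0.080, SE 0.067, limma adjusted p = 0.647). nrde-1 was at 0.094 and nrde-2 at 0.011, so 2 of these 3 were above 0, and 1 was with the length trend removed or without DMSO 4.

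Of the 12 germ granule genes, 7 were above 0 (median 0.0051), 5 with the length trend removed (median -0.046) and 6 without DMSO 4 (median 0.0021). Without DMSO 4 and zidovudine 2 together it was 7 (median 0.022). The 4 meg genes encode disordered proteins that assemble P granules in embryos, the glh genes Vasa-like helicases and the pgl genes core scaffolds. All 4 meg genes were above 0; they lie on the X chromosome, where 66.7% of all tested genes were above 0. Of the 4 glh genes 1 was above 0, and of the 3 pgl genes 1. Differences between these families were not tested. meg-1 (WBGene00010492; chromosome X, 13927036 to 13929634) was at 7.64, 7.61, 7.80 and 7.86 log2 CPM with zidovudine, against 7.48, 7.58, 7.64 and 7.45 with DMSO. Zidovudine 3 and 4 lay above all DMSO libraries and zidovudine 2 between DMSO 2 and DMSO 3 (log2 fold change 0.19, SE 0.071, limma adjusted p = 0.31). meg-3 (WBGene00001569; chromosome X, 1986469 to 1989607) was at 6.40, 6.27, 6.45 and 6.54 log2 CPM with zidovudine, against 6.26, 6.42, 6.29 and 6.06 with DMSO. The groups overlapped, with DMSO 4 lowest (log2 fold change 0.16, SE 0.081, limma adjusted p = 0.452). Its paralogue meg-4 was at 0.17 (SE 0.098) and meg-2 at 0.12 (SE 0.083). The median of the 4 meg genes was 0.17, and it was 0.11 without DMSO 4 and 0.12 with the length trend removed.

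glh-1 (WBGene00001598; chromosome I, 6854478 to 6857536), the Vasa homologue and the most abundant glh mRNA per kb, was at 8.91, 8.95, 9.20 and 9.12 log2 CPM with zidovudine, against 9.09, 9.19, 9.22 and 9.23 with DMSO. Zidovudine 1 and 2 lay below all DMSO libraries and zidovudine 3 and 4 among them (log2 fold change -0.14, SE 0.076, limma adjusted p = 0.5005). glh-4 was at -0.065, glh-3 at -0.061 and glh-2, a close relative of glh-1, at 0.0048. pgl-1 (WBGene00003992) was at 8.94, 8.96, 9.10 and 9.23 log2 CPM with zidovudine, against 9.03, 9.07, 9.09 and 9.02 with DMSO. The zidovudine libraries spread on either side of a tight DMSO group (SD 0.13 with zidovudine and 0.034 with DMSO; log2 fold change 0.0054, SE 0.073, limma adjusted p = 0.985). pgl-2 was at -0.099, pgl-3 at -0.055 and deps-1 at 0.081. ZK1067.2, the gene now named znfx-1 for a Z granule helicase, averaged 7.42 ± 0.11 log2 CPM with zidovudine and 7.42 ± 0.076 with DMSO (SD, n = 4 each; log2 fold change -0.0055).

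Fold changes were also read by chromosome. Of the 54 genes, 20 lie on chromosome I, 5 on II, 8 on III, 7 on IV, 8 on V and 6 on X. All 6 X-linked genes (alg-1, meg-1, meg-2, meg-3, meg-4 and nrde-3) had log2 fold changes above 0, from 0.12 to 0.26 with a median of 0.17, while 30 of the 48 autosomal genes were above 0, with a median of 0.0063. With the length trend removed 15 of the 48 were above 0 (median -0.037), and without DMSO 4 it was 21 (median -0.0065). Without DMSO 4 and zidovudine 2 together it was 29 (median 0.024). The 5 genes on chromosome II had a median of 0.13, with 4 above 0. Their median was 0.038 with the length trend removed and 0.096 without DMSO 4, with 3 above 0 each time. This split was made after the values were known and was not tested. The 1698 tested X-linked genes as a whole had a median of 0.084, and 66.7% of them were above 0. Medians on the 5 autosomes ran from -0.0061 to 0.012. With the length trend removed the medians were 0.12 for the 6 genes and 0.068 for all X-linked genes. They were 0.12 and 0.067 without DMSO 4, and 0.18 and 0.073 without DMSO 4 and zidovudine 2 together. meg-1 and meg-2 lie next to each other on X, about where alg-1 lies too, so the 6 genes are not independent places on the chromosome.

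**Figure D4:**
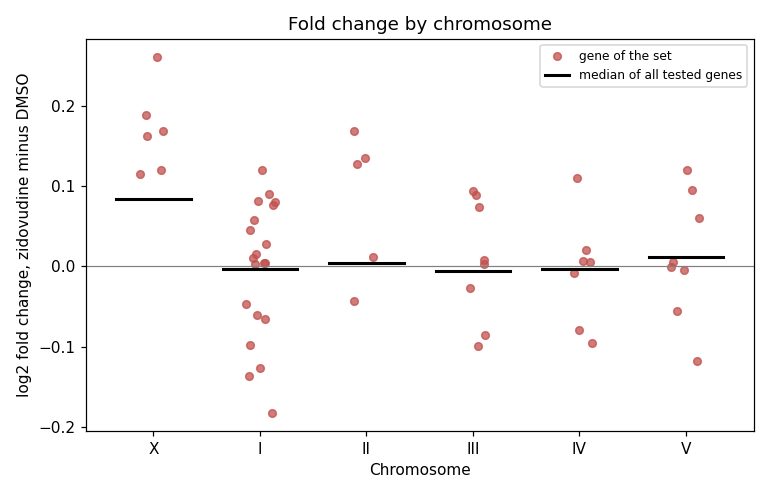
log2 fold change, zidovudine minus DMSO (vertical axis), of the 54 genes by chromosome (red points, with X first), with the median of all tested genes of each chromosome as a black bar. All 6 X-linked genes lie above the X median of 0.084, and points on the other chromosomes lie on either side of bars between -0.0061 and 0.012.

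Within a group, the 54 genes stood higher in some libraries than in others. The median deviation of the 54 genes from their own means was -0.025, -0.11, 0.074 and 0.086 in zidovudine 1 to 4, and -0.021, 0.044, 0.0063 and -0.071 in DMSO 1 to 4. The same medians over all tested genes stayed between -0.017 and 0.013. The 13 tested markers of mitotic and meiotic germ cells had medians of -0.028, -0.097, 0.073 and 0.063 in zidovudine 1 to 4, and -0.029, 0.029, 0.024 and -0.014 in DMSO 1 to 4. The 15 oocyte and maternal markers were highest in zidovudine 4 (0.20) and lowest in DMSO 4 (-0.15). The part of germline content in the values of the 54 genes was not tested. The median SD between libraries for the 54 genes was 0.11 with zidovudine and 0.082 with DMSO, next to 0.13 and 0.15 for all tested genes. These medians were not matched for abundance.

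**Figure D5:**
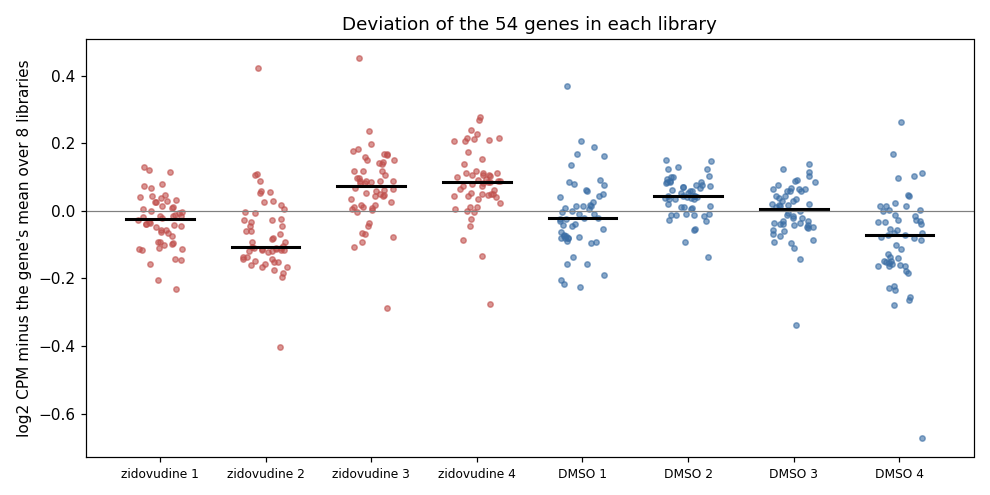
Deviation of each of the 54 genes from its mean over the 8 libraries in log2 CPM (vertical axis; 1 point per gene, black bar at the median), for zidovudine 1 to 4 in red and DMSO 1 to 4 in blue. Medians run from -0.11 in zidovudine 2 to 0.086 in zidovudine 4, and the lowest point, in DMSO 4, is alg-4.

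Other genes of the small RNA pathways, taken from lists by function, gave 0 members past the threshold in either direction. Of 16 piRNA precursor and maturation genes, 8 were above 0 and 8 below (median 0.0039); with the length trend removed and without DMSO 4, 7 were above 0 and the medians were -0.0058 and -0.010. The member with the smallest p was pid-2, a Z granule gene of piRNA silencing, at 5.38 ± 0.071 log2 CPM with zidovudine and 5.56 ± 0.066 with DMSO (SD, n = 4 each; log2 fold change -0.18, limma adjusted p = 0.331). Of 12 genes of the ERI complex and of double-stranded RNA uptake, 9 were above 0 (median 0.067), with eri-9 at 0.14 (limma adjusted p = 0.444); with the length trend removed 6 were (median 0.015), and without DMSO 4 the median was 0.034. Of 13 genes of nuclear silencing and its inheritance, 7 were above 0 (median 0.0090), with lin-15B at 0.13 (limma adjusted p = 0.474); with the length trend removed the median was -0.033 and lin-15B was at 0.044. Of 15 found genes for uridylation enzymes and granule partners, 10 were above 0 (median 0.070, 0.034 with the length trend removed and 0.028 without DMSO 4). ife-1, a translation initiation factor that binds PGL-1, was at -0.23 (limma adjusted p = 0.414) and at -0.12 without DMSO 4, its highest library.

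The genes that work with alg-1 and alg-2 were also read as a list. Of 11 found genes of microRNA processing and effector complexes, 8 were above 0 (median 0.056, 0.016 with the length trend removed and 0.030 without DMSO 4). ain-1, a GW182-like partner of ALG-1, had the smallest p, at 6.75, 6.78, 6.73 and 6.80 log2 CPM with zidovudine, against 6.55, 6.55, 6.75 and 6.39 with DMSO. Only DMSO 3 reached the zidovudine values (log2 fold change 0.21, SE 0.072, limma adjusted p = 0.281). Its paralogue ain-2 was at -0.0061, drsh-1, for the nuclease that starts microRNA processing, at 0.084 and its partner pash-1 at 0.093; without DMSO 4 drsh-1 was at 0.043 and pash-1 at 0.00060. Of 6 classical microRNA targets, 5 were above 0 (median 0.11), with lin-41, a target of let-7, at 0.14 (limma adjusted p = 0.518) and lin-28 at -0.079. With the length trend removed 3 of the 6 were above 0 (median 0.027) and lin-41 was at 0.056; without DMSO 4 lin-41 was at 0.080 and lin-28 at -0.041. Of 7 genes listed as targets of ERGO-1 siRNAs, 6 were tested and 1 was above 0 (median -0.066), with C44B11.6 at -0.65 (limma adjusted p = 0.335). With the length trend removed, 4 of the 6 were above 0 (median 0.027) and C44B11.6 was at 0.038. K02E2.6 was at -0.37 (limma adjusted p = 0.422) and at -0.36 with the length trend removed. Reads were few for several of them, at 71 to 147 for C44B11.6, 87 to 171 for K02E2.6 and 26 to 76 for F55C9.3, the gene above 0.

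No cell type marker passed the threshold. All 15 oocyte and maternal markers were above 0 (median 0.089, 0.051 without DMSO 4 and 0.057 with the length trend removed), with a summed level of 16580.4 to 19884 CPM in zidovudine libraries and 15774.5 to 17835 CPM in DMSO libraries. Of 13 markers of mitotic and meiotic germ cells, 6 were above 0 (median -0.017, -0.029 with the length trend removed), with a sum of 2626 to 3078 CPM with zidovudine and 2593 to 2859.8 CPM with DMSO. Of the 11 tested sperm markers, 2 were above 0 (median -0.15, -0.22 without DMSO 4), with a sum of 72.3 to 79.5 CPM with zidovudine and 75.5 to 84.2 CPM with DMSO. Medians of somatic markers were 0.15 for 12 intestinal, 0.072 for 8 muscle, 0.16 for 10 neuronal and -0.16 for 7 hypodermal genes. Without DMSO 4 they were 0.086 for the intestine, 0.11 for muscle, 0.13 for neurons and -0.078 for the hypodermis. With the length trend removed they were 0.12 for the intestine, 0.011 for muscle, 0.16 for neurons and -0.15 for the hypodermis. Summed levels were 26210.3 to 36167 CPM with zidovudine against 26807.5 to 32970 CPM with DMSO for the intestine, 3790.2 to 4634 against 3492 to 4257 CPM for muscle, 369 to 412 against 348 to 367 CPM for neurons and 624 to 652 against 625 to 824 CPM for the hypodermis. The sums of the neuronal markers lay apart only narrowly, at 369.1 CPM or more with zidovudine and 367.4 CPM or less with DMSO. Of the 10 neuronal markers, 8 were above 0 and 2 below. For 2 of the 10, egl-21 and unc-13, the zidovudine libraries lay wholly above the DMSO libraries, and for 0 wholly below. The shares over all tested genes were 3.84% and 2.82%. snb-1, the most abundant of these markers, overlapped between the groups (7.61 log2 CPM in zidovudine 1 and 7.76 in DMSO 1). The part of tissue content in the values of the 54 genes was not tested.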

How the data were processed

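Polyadenylated RNA of whole worms was sequenced from 4 zidovudine and 4 DMSO samples, with 1 library each. Per the file headers the authors deposited CPM, but the values go below 0, so these deposited values are log2. Per the submitters' processing notes, edgeR 3.26.8, limma 3.40.6, HTSeq 0.11.0, HISAT2 2.1.0, Trimmomatic 0.32 and FastQC were used, with no roles stated. Genome build, annotation and strand setting of the counting: not given in the sources used here. Of the 54 genes, 10 overlap exons on the opposite strand, by at most 109 nt. Overlaps with exons on the same strand were larger for csr-1 (438 nt), alg-5 (159 nt) and pgl-2 (139 nt). Reads behind each value were recovered from the spacing of values (100% whole within 0.05 reads), with a prior of 2 reads at the mean library. Positions and exon lengths came by gene ID from Ensembl (WBcel235), found for all 54.

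limma-trend (limma 3.58.1, R 4.3.3; robust, two-sided, group as the only term, 6 residual degrees of freedom) was fitted to the 12382 genes averaging 0 log2 CPM or more, with Benjamini-Hochberg adjustment over all of them. The table held log2 values, so no count test was the main test. Scripts were tested on simulated data. Genes given in full were those with the 5 smallest p in each direction, without overlap between groups, or highest per kb in a functional group, and, of other pathway lists, the gene with the smallest p. The genes and lists were chosen with earlier results of these data known. Alternatives were 3 scalings or trends (quantile, library totals, no trend), 2 filters, a prior of 0.5 reads, voom on recovered reads, the replicate block, quality weights, removal of the trend on exon length, and libraries left out. No sequences were used here.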

Additional observations from a re-analysis of the deposited data

Results flagged for a closer look

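In 108 groups of 4 libraries (54 genes in 2 groups), 4 had a library set apart from the other 3 by Dixon's test at the 95% level; chance flags about 1 in 20 groups. In zidovudine 1, alg-2 was at 6.57 log2 CPM, below the 6.68 to 6.69 of the other zidovudine libraries. In zidovudine 2, rde-2 was at 6.25 (the others 6.46 to 6.48) and alg-5 at 7.13 (the others 7.33 to 7.37). In DMSO 2, rde-11 was at 5.06, below the 5.16 to 5.17 of the other DMSO libraries.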

How the results depend on the processing

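Across 19 other settings, the count of the 54 genes past the threshold stayed at 0 except with sample quality weights, where 1 gene, alg-1, passed; alg-1 stayed above 0 in all 19. Without 1 library the count was 0 each time. The median of the 54 log2 fold changes moved by less than 0.063 in each setting. That value is the SD, between libraries of a group, of the median level of the 54 genes. It is not the error of a difference between groups. The median fold change ran from -0.032 (length trend removed) to 0.059 (without zidovudine 2) and was -0.0016 without DMSO 4. Of the 54 genes, 31 kept their sign in all settings, and 22 of the 23 that changed it had a size below their standard error. Over all tested genes, 21 passed; 13 did with quantile normalization, 4 with no trend, 9 with the replicate block, 148 with sample quality weights, 12 with library totals as the only scaling, 156 without DMSO 4 and zidovudine 2 together, and 4 (without DMSO 1) to 41 (without zidovudine 2) without 1 library; leaving out any of the 8 moved this count by over 1.5 times. The cause was not tested. Same-numbered zidovudine and DMSO libraries did not deviate together (correlations 0.067, -0.18, 0.14 and -0.32 for numbers 1 to 4), so the replicate block pairs libraries by number only. The few reads of wago-10, wago-11, alg-3, alg-4 and sago-2 limit what can be seen there.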

Other observations

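Outside the 54 genes, fbf-1, for an RNA-binding regulator of germline stem cells, was the germ cell marker with the smallest p, at 4.61, 4.78, 4.73 and 4.72 log2 CPM with zidovudine, against 4.99, 4.97, 5.08 and 5.30 with DMSO. The zidovudine libraries lay wholly below the DMSO libraries, as for 2.82% of all tested genes. The gene did not pass over all tested genes (log2 fold change -0.37, SE 0.087, limma adjusted p = 0.111). Without DMSO 4, its highest library, the log2 fold change was -0.30. The 13 markers of mitotic and meiotic germ cells, fbf-1 included, had a median of -0.017, with 6 above 0 and 7 below. set-25, for a histone H3 lysine methyltransferase that acts in nuclear silencing, was at 4.33, 4.47, 4.71 and 4.57 log2 CPM with zidovudine, against 4.52, 4.76, 4.79 and 5.85 with DMSO. Its log2 fold change of -0.46 (SE 0.29, limma adjusted p = 0.577) came with 1 library, DMSO 4, far above the other 7, and was -0.17 without it. These genes were singled out after their values were seen.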
